A study of Mus musculus with 6 samples.

Results

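NUP214 is a nucleoporin, a protein of the nuclear pore, and this account concerns the genomic regions where its CUT&Tag signal was called in every leukemia stem cell library and in no library of normal hematopoietic stem cells (HSCs). CUT&Tag cuts and tags chromatin beside an antibody's target, and peaks had been called in every library on its own. Peaks of all 6 libraries on chromosomes 1 to 19, X and Y were merged where they overlapped by at least 1 bp. The members were chosen by the peak calls themselves: a merged region was kept if it held a peak in both Nup214-HET and both Nup214fl/+ leukemia libraries and none in either HSC library. This gave 1106 of 34085 merged regions, or 3.24%. Their presence in leukemia cells and absence from HSCs is thus how they were selected and is not a result.

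Nup214-HET leukemia stem cells (LSCs) came from Nup214fl/+,Tie2-Cre mice, and the other LSCs from Nup214fl/+ mice, which carry the floxed allele without the recombinase. Tie2-Cre is active in blood and endothelial cells, so deletion is not limited to leukemia cells. Both kinds of mice carried an acute myeloid leukemia that the fusion oncogene MLL-AF9 drives, and their LSCs were sorted from bone marrow as lineage-negative, Sca-1-negative cells positive for c-Kit, CD16/32 and CD34. HSCs were CD48-CD150+LSK bone marrow cells from Nup214fl/+ mice, for which the labels name neither Tie2-Cre nor leukemia. Each group had 2 libraries. The labels name hematopoietic stem cells as the cell type of all 6 libraries, do not say whether replicate libraries are from different animals, and list no library made without the NUP214 antibody. Tests over libraries therefore measure how far these libraries spread, and that spread may be technical.

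The nuclear pore complex carries RNA and protein between nucleus and cytoplasm. NUP214 sits on its cytoplasmic face beside NUP88, where messenger RNA leaves the pore and where the exportin XPO1 docks. Some nucleoporins are also found at chromatin, often at active genes, and NUP214 is a fusion partner in human leukemia.

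The regions mostly lay at gene starts with a high content of CpG dinucleotides. Promoters of 6 genes follow, to show what sequence lies under such a region. They come from RefSeq (GRCm38.p6, the assembly also called mm10), read 5′ to 3′ on the gene's own strand, and span 250 bases before the start and the first 30 bases from it on. They were the genes whose peak summits lay nearest the listed start on average. The choice was among genes at the strongest regions and in some of the gene lists described below. Those lists were MLL-fusion, blood stem cell, granulocyte-monocyte, nuclear pore, ferroptosis, survival, p53, splicing, chromatin and immediate-early genes. Capitals mark every match, on either strand, to a CCAAT box (CCAAT), a GC box (GGGCGG), an ETS core (CCGGAAG), part of a cAMP response element (TGACGTC) or a YY1 core (ATGGCGG).
Ftl1 (chr7:45459857-45460136, minus strand): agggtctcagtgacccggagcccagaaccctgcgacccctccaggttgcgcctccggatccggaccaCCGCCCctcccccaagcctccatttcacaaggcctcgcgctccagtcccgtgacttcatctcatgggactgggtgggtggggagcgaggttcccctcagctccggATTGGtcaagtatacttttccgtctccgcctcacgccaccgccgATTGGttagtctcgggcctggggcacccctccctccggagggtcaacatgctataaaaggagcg
Srsf10 (chr4:135855821-135856100, plus strand): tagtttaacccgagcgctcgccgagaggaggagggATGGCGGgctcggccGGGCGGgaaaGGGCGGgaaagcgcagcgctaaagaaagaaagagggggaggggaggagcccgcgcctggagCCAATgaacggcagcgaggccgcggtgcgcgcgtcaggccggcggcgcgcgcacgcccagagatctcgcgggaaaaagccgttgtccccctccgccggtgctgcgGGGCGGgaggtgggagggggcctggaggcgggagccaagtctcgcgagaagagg
Ptbp1 (chr10:79854182-79854461, plus strand): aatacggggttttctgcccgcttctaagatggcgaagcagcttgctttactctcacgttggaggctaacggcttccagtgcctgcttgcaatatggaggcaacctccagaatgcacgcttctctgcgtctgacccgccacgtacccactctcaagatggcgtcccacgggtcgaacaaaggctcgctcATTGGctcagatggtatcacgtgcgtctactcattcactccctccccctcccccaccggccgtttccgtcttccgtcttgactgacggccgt
Nfe2l2 (chr2:75704634-75704913, minus strand): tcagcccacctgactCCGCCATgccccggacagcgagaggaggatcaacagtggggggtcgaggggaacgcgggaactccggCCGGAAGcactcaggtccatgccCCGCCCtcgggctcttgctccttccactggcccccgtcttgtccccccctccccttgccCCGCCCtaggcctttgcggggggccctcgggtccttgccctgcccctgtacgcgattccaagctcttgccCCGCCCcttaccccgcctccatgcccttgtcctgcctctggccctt
Jun (chr4:95052193-95052472, minus strand): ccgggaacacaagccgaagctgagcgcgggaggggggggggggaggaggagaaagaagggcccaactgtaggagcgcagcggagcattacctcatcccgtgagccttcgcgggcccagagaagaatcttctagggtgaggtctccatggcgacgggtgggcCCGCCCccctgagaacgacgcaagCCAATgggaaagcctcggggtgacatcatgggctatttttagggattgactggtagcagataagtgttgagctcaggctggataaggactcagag
Usp20 (chr2:30982029-30982308, plus strand): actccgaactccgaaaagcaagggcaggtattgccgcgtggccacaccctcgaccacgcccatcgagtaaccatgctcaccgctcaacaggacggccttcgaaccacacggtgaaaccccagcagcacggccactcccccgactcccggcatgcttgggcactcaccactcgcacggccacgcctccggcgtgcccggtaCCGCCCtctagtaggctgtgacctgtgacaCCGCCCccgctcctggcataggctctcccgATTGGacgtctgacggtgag

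Ftl1 encodes the light chain of ferritin, the iron store. Its region had folds of 4.73 and 5.64 in Nup214-HET LSCs, against 9.17 and 7.18 in Nup214fl/+ LSCs. A fold is the authors' enrichment of a peak's summit over local background, a linear ratio. Folds are printed for each library, but strength is compared between genotypes only by rank within a library. Median folds over all the regions were 6.40 and 6.08 in Nup214-HET LSCs, against 12.1 and 8.34 in Nup214fl/+ LSCs. A lower fold in Nup214-HET LSCs at a single region is therefore not read as a difference particular to that region. The 4 summits lay at -4 and 43 bp in Nup214-HET LSCs, and at -19 and -24 bp in Nup214fl/+ LSCs, counted along the gene from its start. The printed window held 19 CpG dinucleotides, 2 CCAAT boxes and 1 GC box. All 4 summits thus lay close to the start of Ftl1.

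At Ptbp1, which encodes a splicing regulator, the summits of all 4 libraries lay downstream of the start, at 74 and 79 bp in Nup214-HET LSCs, against 80 and 85 bp in Nup214fl/+ LSCs. Srsf10, another splicing regulator, had summits at -31 and -124 bp in Nup214-HET LSCs, against 55 and -47 bp in Nup214fl/+ LSCs. The Ptbp1 positions fell within a few bases of each other, whereas those of Srsf10 lay on both sides of the start. Nfe2l2 encodes NRF2, the transcription factor of the antioxidant response. Its summits lay at 123 and 183 bp in Nup214-HET LSCs, and at 19 and 7 bp in Nup214fl/+ LSCs. The summits at Jun, a subunit of the AP-1 transcription factor, lay at -60 and -167 bp in Nup214-HET LSCs, and at -117 and -47 bp in Nup214fl/+ LSCs. Usp20, which encodes a deubiquitinase, shares its region with the neighbouring gene BC005624, and its summits lay at -83 and -144 bp in Nup214-HET LSCs, and at -134 and -35 bp in Nup214fl/+ LSCs. These 6 windows had CpG observed over expected ratios between 0.563 for Nfe2l2 and 1.09 for Srsf10.

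The merged regions measured 426 to 2407 bp, with a median of 798 bp, and covered 934 kb in all. The length of the deposited lists differed widely: the leukemia libraries held 5452 and 4681 peaks in Nup214-HET LSCs, against 25437 and 10525 peaks in Nup214fl/+ LSCs, and the HSC libraries 1045 and 634. The sources used here give no read totals, so absence from the HSC lists means that no peak was called there, and the NUP214 signal below the calling limit was not measured. Signal from fewer cells and less signal per cell cannot be told apart in such data. No HSC peak lay within 1 kb of any of the 1106 regions, 4 regions had one within 5 kb, and 14 had one within 10 kb.

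Peaks in these regions made up 20.4% and 23.6% of the lists of Nup214-HET LSCs and 4.68% and 11.1% of the lists of Nup214fl/+ LSCs. The means were 22.0 ± 2.33% and 7.89 ± 4.55% (SD, n = 2 each). The rule fixes the number of these peaks near that of the regions, at 1110 and 1107 in Nup214-HET LSCs, against 1190 and 1169 in Nup214fl/+ LSCs, so the share describes list length and is not read as a difference between genotypes.

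**Figure D1:**
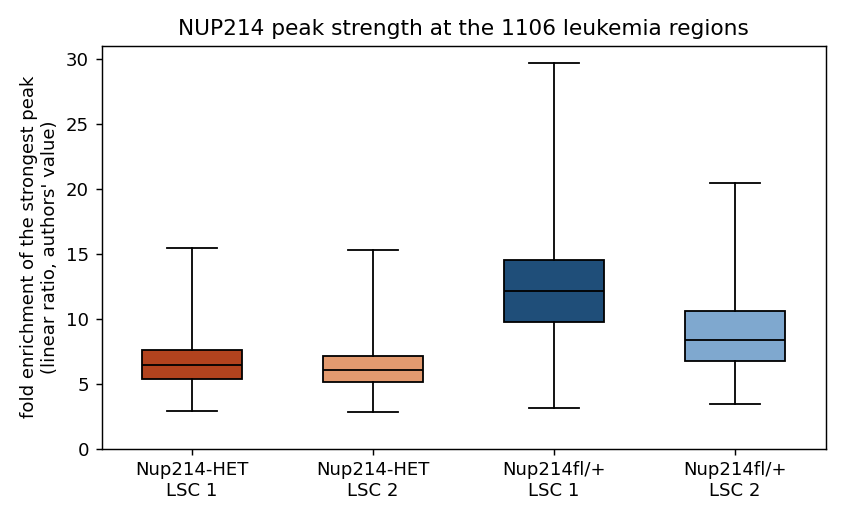
Fold enrichment of the strongest peak (y axis, linear ratio, the authors' value) at the 1106 regions in each leukemia library (x axis). Boxes span the quartiles with the median as a line, and whiskers reach the lowest and highest region; medians are 6.40 and 6.08 in Nup214-HET LSCs, against 12.1 and 8.34 in Nup214fl/+ LSCs.

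Within each library, the strongest peak of a region stood high in the list. The median percentile of its fold among all peaks of the library was 75.4 and 73.1 in Nup214-HET LSCs, against 89.7 and 81.3 in Nup214fl/+ LSCs. Folds ranged from 2.92 to 15.4 and from 2.81 to 15.3 in the Nup214-HET libraries, and from 3.15 to 29.6 and from 3.45 to 20.4 in the Nup214fl/+ libraries, as the plot of fold enrichment shows. The calls that chose the members favour strong peaks, so these levels are descriptive.

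Regions just outside the rule show how the levels change at its edges. The 1385 regions present in 3 of the 4 leukemia libraries and in no HSC library had median percentiles, where called, of 57.1 and 55.9 in Nup214-HET LSCs, against 85.0 and 72.0 in Nup214fl/+ LSCs. The library without a peak was the second Nup214-HET library in 715 of them, the first in 369, the second Nup214fl/+ library in 285 and the first in 16. On the other side of the rule, 173 regions were called in all 4 leukemia libraries and in 1 HSC library. Their median percentiles were 92.5 and 91.5 in Nup214-HET LSCs, against 93.6 and 93.5 in Nup214fl/+ LSCs. Of these, 168 were called in the first HSC library, which had the longer list of the pair. Regions missed by a leukemia library were thus weaker, and regions also called in an HSC library stronger, than the members in each leukemia library.

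Most regions lay at a gene end. Of the 1106, 861 (77.8%) lay within 1 kb of an end of a protein-coding gene in RefSeq, 146 (13.2%) lay inside a gene and farther from its ends, and 99 (8.95%) lay between genes. Orientation was known for 746 of the 861 from the RefSeq promoter list, and 739 of these (99.1%) lay at a start, against 7 found only at a far end. Gene end here therefore nearly always means transcription start. The regions lay at the end of 1112 of 21887 protein-coding genes, or 5.08%. With regions inside genes counted too, 1266 genes (5.78%) had one.

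The position of a region was not used to choose it, and it was compared with the other peaks of the same library. Peaks in the regions lay at a gene end in 77.1% and 77.3% of cases in Nup214-HET LSCs, against 76.6% and 76.3% in Nup214fl/+ LSCs. For the other peaks the share was 27.3% and 22.4% in Nup214-HET LSCs, against 33.3% and 34.8% in Nup214fl/+ LSCs. The share was higher for the regions in 4 of 4 libraries, by 47.4 percentage points on average (76.8% against 29.5%; exact sign-flip permutation test over libraries, two-sided, p = 0.13, the smallest 4 libraries allow). The 4 libraries hold the same regions, so their differences are not independent, here and in the CpG and motif comparisons below. Other peaks were weaker. Against those at least as strong as the median region in the library, the average difference was 24.7 points, also higher in all 4 (exact sign-flip p = 0.13). The gap was much smaller in Nup214fl/+ LSCs. These strong other peaks lay at a gene end in 42.2% and 33.3% of cases in Nup214-HET LSCs, against 69.6% and 63.4% in Nup214fl/+ LSCs. Adjusted over the 5 values compared between libraries in this account, the smallest permutation p was 0.31 (Benjamini-Hochberg).

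**Figure D2:**
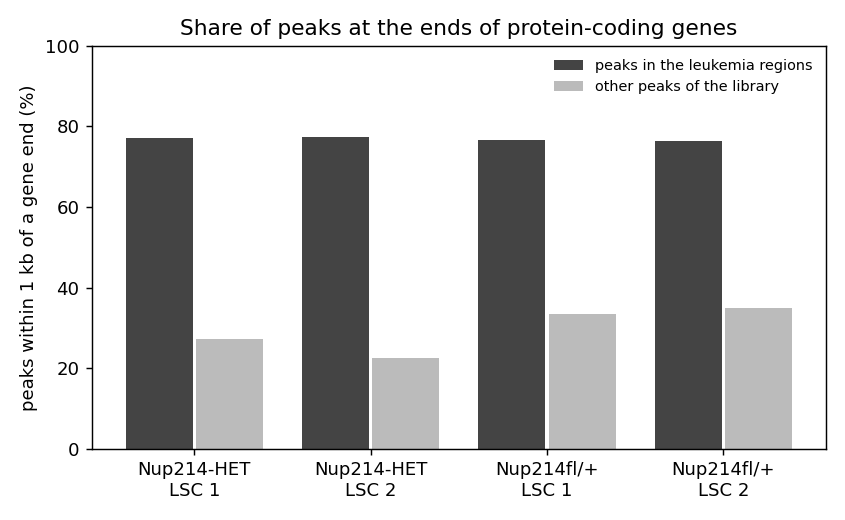
Share of peaks within 1 kb of an end of a protein-coding gene (y axis, percent) in each leukemia library (x axis), for peaks in the 1106 regions (dark bars) and all other peaks of the library (light bars). Dark bars stand between 76.3% and 77.3%, and light bars between 22.4% and 34.8%.

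The share at gene ends was larger in regions called in more leukemia libraries. Among regions without an HSC peak it was 19.6% for 25026 regions of 1 leukemia library, 48.3% for 5128 regions of 2 and 67.9% for 1385 regions of 3. Regions called in all 6 libraries were of another kind: 6 of 109 (5.50%) lay at a gene end. Regions called in all leukemia libraries and in the first HSC library alone resembled the members in this measure, with 128 of 168 (76.2%) at a gene end. The 113 regions found in both Nup214-HET libraries alone had 10.6% at a gene end, and the 4076 found in both Nup214fl/+ libraries alone had 51.0%.

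Summits sat just upstream of the start. Over 792 regions within 1 kb of a listed start, the median summit position was -64.5 and -84 bp in Nup214-HET LSCs, against -79 and -85 bp in Nup214fl/+ LSCs. The share of summits within 250 bp of the start was 73.2% and 73.0% in Nup214-HET LSCs, against 80.6% and 78.2% in Nup214fl/+ LSCs. Upstream summits made up 65.4% and 63.3% in Nup214-HET LSCs, against 77.7% and 75.1% in Nup214fl/+ LSCs. Both Nup214fl/+ libraries were thus more concentrated upstream of the start than both Nup214-HET libraries, as the plot of summit positions shows.

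**Figure D3:**
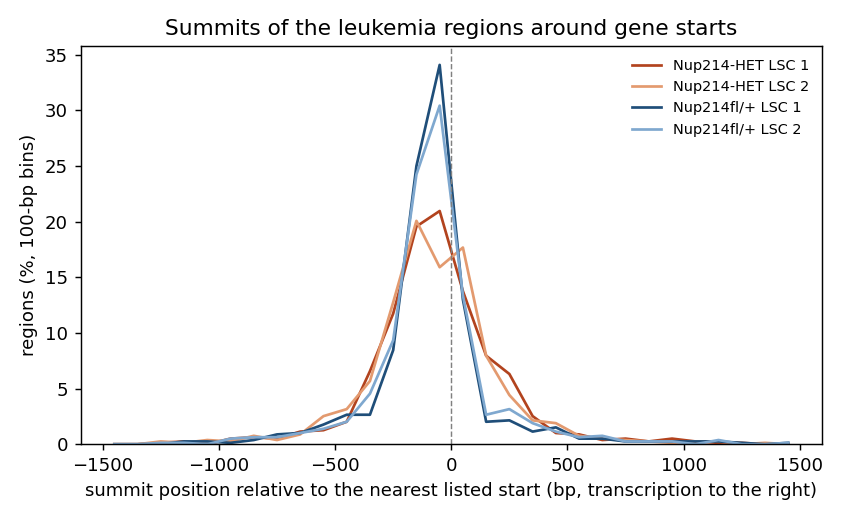
Distribution of summit positions of the regions around the nearest listed gene start (x axis, bp, transcription to the right; y axis, percent of 792 regions in bins of 100 bp), one line per leukemia library. All 4 lines peak just before the start, and the Nup214-HET lines are lower and wider, with 34.6% and 36.6% of summits downstream against 22.0% and 24.5% in Nup214fl/+ LSCs.

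Libraries of 1 genotype placed the summit of a region closer together than libraries of different genotype. The median distance between summits over the 1106 regions was 79 bp within Nup214-HET LSCs, 40 bp within Nup214fl/+ LSCs and 96 to 107 bp across genotypes. Peaks were also wider in some libraries than in others. Median widths were 567 and 555 bp in Nup214-HET LSCs, against 635 and 341 bp in Nup214fl/+ LSCs. The mean difference of 73 bp was smaller than the spread within Nup214fl/+ LSCs (561 ± 8.49 against 488 ± 208 bp, SD, n = 2 each; exact permutation p = 1), and it turned to -49.8 bp without the second Nup214fl/+ library. Over all peaks of a list, the median width was 435 and 454 bp in Nup214-HET LSCs, against 274 and 212 bp in Nup214fl/+ LSCs. The shortest peak measured 320 and 329 bp in Nup214-HET LSCs, against 145 and 143 bp in Nup214fl/+ LSCs. Widths over whole lists thus separated the genotypes, unlike those at the regions. Whether peak width has a part in the position of summits was not tested.

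Head-to-head gene pairs, whose starts face away from each other on opposite strands within 1 kb, were frequent among the regions. Of the 739 regions at a start, 157 (21.2%) had both starts of such a pair within 1 kb. A start here is a listed one or the gene's 5′ end by its listed strand. Among 909 genes with a region at such a start, 310 (34.1%) belonged to a head-to-head pair, against 1795 of 17492 genes (10.3%) with a listed start. One region is enough to reach both genes of a pair, so a pair is counted with 2 genes here. The share among genes under other leukemia peaks was not counted, so whether such pairs are particular to the regions was not tested. Ap2a1 and Tsks, Ccdc47 and Ddx42, and Jkamp and L3hypdh are gene pairs that share 1 of the strongest regions.

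Promoters under the regions were rich in CpG. Of 21263 RefSeq promoter windows of 300 bases, 1061 (919 genes) were met by a peak of the regions, and their median CpG observed over expected ratio was 0.839. It was 0.80 in the 7241 windows met by another leukemia peak and 0.302 in the 12961 windows met by none. A ratio of at least 0.6, a usual mark of CpG islands, was reached by 89.9% of windows under the regions, 80.6% of those under other leukemia peaks and 25.8% of those under none. Chromosome 18, which holds 24 of the regions, was left out of the choice of promoters printed above.

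**Figure D4:**
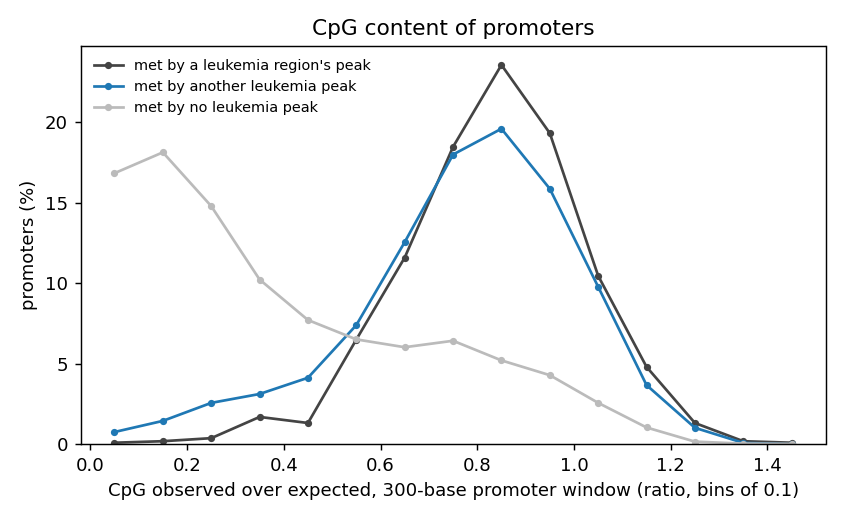
CpG observed over expected ratio of 300-base promoter windows (x axis, ratio in bins of 0.1; y axis, percent of windows), for the 1061 windows met by a peak of the regions, the 7241 met by another leukemia peak and the 12961 met by none. Both sets met by peaks centre near 0.8, and the set met by none lies mostly below 0.4.

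Library by library, the median ratio under the regions was 0.838 and 0.837 in Nup214-HET LSCs, against 0.840 and 0.843 in Nup214fl/+ LSCs. Under the other peaks of the same libraries it was 0.835 and 0.809 in Nup214-HET LSCs, against 0.802 and 0.829 in Nup214fl/+ LSCs. The regions were higher in 4 of 4, by 0.0207 on average (exact sign-flip permutation test, p = 0.13). This small difference did not hold against other peaks of at least the median region's strength, where it was -0.0128 (exact p = 0.375). High CpG content was therefore shared by the promoters under strong leukemia peaks whether or not they lay in the regions.

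Short motifs were counted in the same windows as a description of their letters. A CCAAT box was present in 51.7% of windows under the regions, against 40.3% under other leukemia peaks and 38.2% of all windows. In each library it was more frequent under the regions: 52.7% against 48.1% and 52.3% against 44.9% in Nup214-HET LSCs, and 51.8% against 40.4% and 54.1% against 48.3% in Nup214fl/+ LSCs. The average difference was 7.32 percentage points (exact sign-flip permutation test, p = 0.13, the smallest possible). A GC box was present in 76.8% of windows under the regions, against 70.5% under other leukemia peaks and 46.2% of all windows, and it was higher in 4 of 4 libraries by 4.59 points (exact p = 0.13). Neither difference held against other peaks at least as strong as the median region. For the CCAAT box it was then 1.18 points, higher in 3 of 4 libraries (exact p = 0.38), and for the GC box -0.71 points, higher in 2 of 4 (exact p = 0.88). Adjusted over the 13 motifs compared, no permutation p fell below 0.20 (Benjamini-Hochberg).

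For the other motifs named here, the share under the regions lay closer to that under other leukemia peaks than to that of all windows. The ETS core, part of the site of ETS factors, was in 21.9% of windows under the regions, 22.6% under other leukemia peaks and 11.6% of all windows. For the YY1 core the shares were 11.4%, 9.52% and 5.25%, and for the cAMP response element letters 8.29%, 6.86% and 3.84%. Motifs of blood cell factors were no more frequent under the regions than in all windows. The RUNX core (TGTGGTT) was in 1.32% of windows under the regions, 3.77% under other leukemia peaks and 4.71% of all windows. Library by library, the RUNX core was lower under the regions in 4 of 4, with a difference of -2.12 points to all other peaks and of -2.14 points to those at least as strong. The PU.1 core was higher in 4 of 4, by 0.64 and 1.58 points in these comparisons, and so was the TATA box (TATAAA), by 1.72 and 2.69 points. The GATA core was lower in 4 of 4, with -1.49 and -0.75 points, and so was the AP-1 core, with -1.20 and -0.60 points. Each of these has the smallest exact permutation p the design allows (0.13). A PU.1 core (GAGGAAG) was in 13.2% of windows under the regions and 13.6% of all windows. The GATA core (AGATAA) and the AP-1 core (TGANTCA) stood at 3.58% and 2.92% under the regions, against 9.65% and 6.99% of all windows. Both strands were searched, and GC-rich motifs overlap in composition with the CpG content of the windows.

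Strength was greatest at gene ends. The mean percentile of a region's fold over the 4 leukemia libraries had a median of 79.5 at gene ends, 70.0 inside genes and 65.6 between genes. In the libraries one by one, median folds at gene ends were 6.54 and 6.20 in Nup214-HET LSCs, against 12.5 and 8.59 in Nup214fl/+ LSCs. Between genes they were 5.87 and 5.55 in Nup214-HET LSCs, against 9.70 and 6.96 in Nup214fl/+ LSCs. The order was the same in all 4 libraries.

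The strongest region of all lay away from a coding gene. It spanned chr12:54710504-54711072, 14605 bp from Eapp, with folds of 15.4 and 15.3 in Nup214-HET LSCs, against 29.6 and 20.4 in Nup214fl/+ LSCs. These folds stood at the 99.3rd percentile in both Nup214-HET libraries and at the 99.8th and 99.6th in the Nup214fl/+ libraries. A gene of the snRNA class, Gm22634, ends just beside it at position 54710471, and the region ranked first in every leukemia library among the members. Eapp itself had another of the regions at its end, at chr12:54695513-54697558, which overlapped a second snRNA gene, Gm22513, and had a mean percentile of 53.5.

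The other 14 regions with the highest mean percentile all lay at gene ends. Eif4ebp2, whose product restrains translation initiation (chr10:61452725-61453427), had folds of 9.96 and 11.8 in Nup214-HET LSCs, against 16.8 and 14.5 in Nup214fl/+ LSCs. Cul3, the scaffold of a family of ubiquitin ligases (chr1:80340645-80341298), had folds of 9.82 and 8.26 in Nup214-HET LSCs, against 21.7 and 15.2 in Nup214fl/+ LSCs. At Kdm3a, a histone H3K9 demethylase (chr6:71632741-71633592), folds were 11 and 11.8 in Nup214-HET LSCs, against 13.6 and 11.9 in Nup214fl/+ LSCs. Among the remaining genes were Rab8a, a GTPase of vesicle transport, Acsl1, an enzyme that activates fatty acids, and Pop7, a protein subunit of RNase P and RNase MRP. Inpp5f, Gpr155, Mtrf1l, Lims1, Ap2a1 with Tsks, Ccdc47 with Ddx42, Jkamp with L3hypdh and BC005624 with Usp20 made up the rest. Mean percentiles of these 14 ran from 96.5 to 98.2.

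At the other extreme, Mnt, a MAX-binding repressor, had a mean percentile of 20.5. Its folds were 4.08 and 3.54 in Nup214-HET LSCs, against 4.73 and 5.16 in Nup214fl/+ LSCs. Weak regions between genes lay near Zfp36, Ppp1r26 and Zswim4, with mean percentiles of 17.4, 22.8 and 24.6. Length did not go with strength among the regions singled out for it. The longest region, 2407 bp with 7 peaks, lay at Tle3, a transcriptional corepressor (chr9:61370479-61372885), and had folds of 4.35 and 4.39 in Nup214-HET LSCs, against 9.64 and 11.1 in Nup214fl/+ LSCs. Egr1, an immediate-early transcription factor, and Ptma, prothymosin alpha, also held 7 peaks each. The 1909-bp region of Ddit3, which encodes the stress factor CHOP, and Mbd6 had a mean percentile of 60.8, and that of Midn, of 1885 bp, 50.6.

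Among the 146 regions inside genes, 65 lay within 1 kb of an inner listed start and 6 at the end of a long noncoding RNA gene, so that 75 had neither. Of the 99 regions between genes, 24 lay at the end of a long noncoding RNA gene and 75 did not. All 99 together lay a median of 11397 bp from the nearest coding gene, and at most 241190 bp. Strong examples between genes were the region 2187 bp from Acod1, with folds of 8.80 and 8.48 in Nup214-HET LSCs, against 13.1 and 10.4 in Nup214fl/+ LSCs, and the region 12449 bp from Ccne1, which encodes cyclin E1, with folds of 7.71 and 6.81 in Nup214-HET LSCs, against 14.0 and 11.4 in Nup214fl/+ LSCs. Both were named after their values were seen.

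Several regions lay at or near genes of small RNAs. Of the 1106, 16 lay within 1 kb of genes of the snRNA class (18 genes), 9 near tRNA genes (14 genes), 8 near snoRNA genes (12 genes) and 14 near miRNA genes (15 genes). These were 1.79% of 1004 snRNA genes, 3.43% of 408 tRNA genes, 0.896% of 1340 snoRNA genes and 1.22% of 1228 miRNA genes in the table, all below the 5.08% of protein-coding genes. Of the 16 snRNA regions, 12 overlapped the gene and 8 had no coding gene end within 1 kb. Of the 9 tRNA regions, 7 overlapped a gene and 2 had no coding gene end within 1 kb. These counts were 1 and 3 for the 8 snoRNA regions, and 9 and 1 for the 14 miRNA regions. On chromosome 11, Rnu1a1, a gene of U1, the RNA that recognizes the start of introns, had folds of 3.86 and 4.77 in Nup214-HET LSCs, against 6.55 and 6.00 in Nup214fl/+ LSCs. The U3 genes Rnu3b1, Rnu3b3 and Rnu3b4 lay in 3 separate regions of the same stretch of chromosome 11, with mean percentiles of 76.8, 72.8 and 81.9. Rnu2-10 and Rnu12, genes of the spliceosomal U2 and U12 RNAs, had mean percentiles of 60.9 and 69.8. Copies of such genes are near identical and the sources used here do not say how reads that map to several copies were treated, so the values of single copies are uncertain.

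Rmrp, the RNA of RNase MRP, shared a region with Ccdc107, with folds of 4.15 and 5.22 in Nup214-HET LSCs, against 14.0 and 8.03 in Nup214fl/+ LSCs. Rn7s1, a copy of the RNA of the signal recognition particle, lay in the region of Rps29. The tRNA genes n-TYgta1 and n-TYgta2 lay within 1 region without a coding gene end, with folds of 4.86 and 6.12 in Nup214-HET LSCs, against 8.71 and 7.42 in Nup214fl/+ LSCs. Mir191 and Mir425 lay near the region at Dalrd3 and Ndufaf3, whose mean percentile was 43.5. Other regions near small RNA genes were stronger: that beside n-TVcac7, a tRNA gene, at Trim41 had a mean percentile of 94.9, and that beside Snora24 91.4.

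Gene lists were then read against the 5.08% of all protein-coding genes with a region at an end. As counts they show where the regions fell, and no test of a list was run. Several of these regions also lay at the end of a neighbouring gene outside the list. Examples are Pcna with Cds2, Men1 with Map4k2, Nup88 with Rpain, Srsf2 with Mfsd11, Hnrnpk with Rmi1 and Kmt2d with Prkag1. The fold of a shared region cannot be assigned to a single gene. Replication-dependent histone genes had the highest share: 11 of the 27 genes listed (40.7%) lay at 8 regions. The list holds only part of this class, since H2ac11, H2bc7 and H2bc9 share these regions and are not on it. Splicing factor genes followed with 14 of 45 (31.1%), immediate-early and stress-response genes with 10 of 36 (27.8%), and ferroptosis suppressor genes with 5 of 29 (17.2%). None of 1110 olfactory receptor genes, genes of olfactory neurons, had one. B cell markers (0 of 10), erythroid markers (0 of 12) and endothelial and stromal markers (0 of 14) had none either, except that 1 erythroid gene had one without the second Nup214-HET library, and 1 B cell and 1 erythroid marker had one when the distance to a gene end was widened to 5 kb. The order of the lists did not hold with all peak lists cut to their 634 strongest peaks, where the rule left 107 regions. Histone genes then had 0, splicing factor genes 1, and immediate-early, ferroptosis suppressor and nuclear pore genes 2 each.

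**Figure D5:**
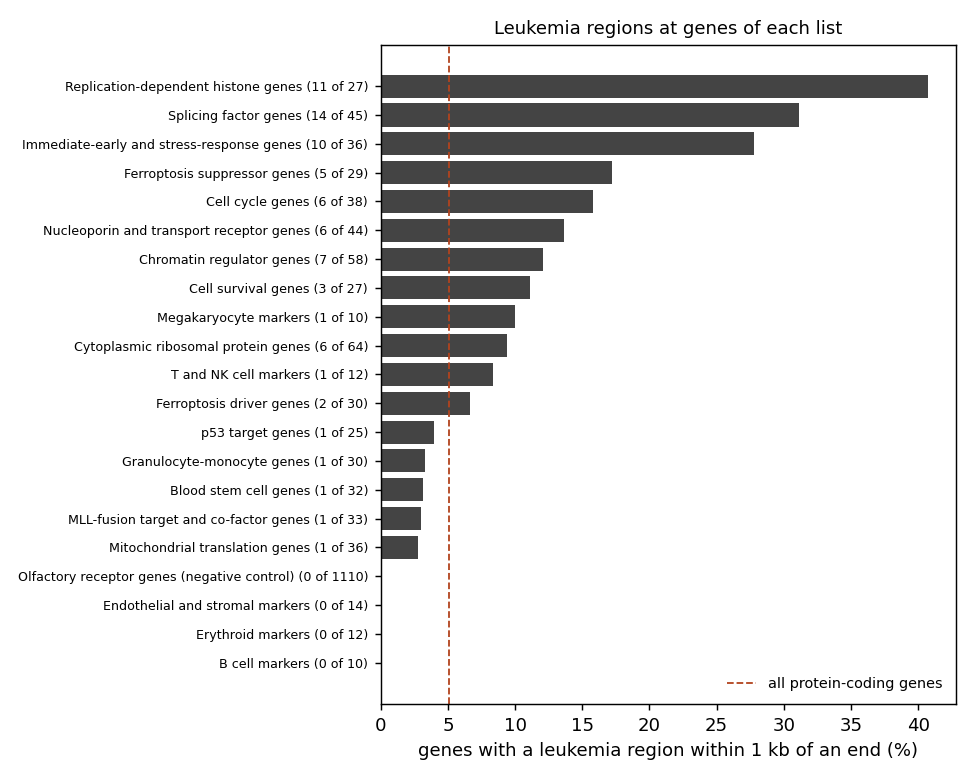
Percent of the genes of each list with a region within 1 kb of an end (x axis), one bar per list (y axis, with the number of genes), and the 5.08% of all protein-coding genes as a dashed line. Histone, splicing factor and immediate-early genes stand farthest right, and olfactory receptor, erythroid, B cell and endothelial genes stand at 0.

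H2ac6 and H2bc4, neighbouring histone H2A and H2B genes at chr13:23683712-23684424, had the strongest histone region, with folds of 6.89 and 7.76 in Nup214-HET LSCs, against 13.3 and 12.0 in Nup214fl/+ LSCs. H4c1 and H3c1 shared a region with a mean percentile of 81.1, and H3c3 and H2bc3 shared one at 43.9. The median over the 8 regions was 59.6, against 77.9 over all 1106. Histone gene copies are similar in sequence, and the uncertainty named for repeated RNA genes holds for them.

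Splicing factors included members of the SR and hnRNP families. Srsf2, an SR protein that binds exonic enhancers (chr11:116852958-116853869), had folds of 8.52 and 8.68 in Nup214-HET LSCs, against 12.7 and 10.2 in Nup214fl/+ LSCs, the highest mean percentile of the list at 92.3. Hnrnpk, an RNA-binding protein of nuclear transcripts, had folds of 10.6 and 7.86 in Nup214-HET LSCs, against 16.5 and 7.70 in Nup214fl/+ LSCs. Snrnp70, a protein of the U1 particle, had folds of 7.05 and 5.91 in Nup214-HET LSCs, against 15 and 12.5 in Nup214fl/+ LSCs. Srsf1, Srsf5, Srsf10, Tra2b, Hnrnpd, Hnrnpm, Ptbp1, Rbm39, Sf3b2, Snrpa and Snrpd3 completed the 14, and Hnrnph1 and Hnrnpl had a region inside the gene. The median mean percentile of the 14 was 76.9, near that of all regions.

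Immediate-early and stress genes covered AP-1 and its partners. Jun (region chr4:95051815-95052971) had folds of 5.34 and 4.64 in Nup214-HET LSCs, against 11.5 and 11 in Nup214fl/+ LSCs, and Jund 6.74 and 5.50 in Nup214-HET LSCs, against 10.3 and 10.2 in Nup214fl/+ LSCs. Junb had 3.70 and 2.90 in Nup214-HET LSCs, against 6.31 and 5.63 in Nup214fl/+ LSCs, the weakest of the list with a mean percentile of 27.5. All 3 Jun family genes thus had a region, and Junb was far weaker than the others. Egr1 had folds of 5.05 and 4.49 in Nup214-HET LSCs, against 5.38 and 6.26 in Nup214fl/+ LSCs. Hspa8, a constitutive HSP70 chaperone, was the strongest of the list, with folds of 8.30 and 7.29 in Nup214-HET LSCs, against 10.4 and 9.66 in Nup214fl/+ LSCs. Atf4, Dusp1, Gadd45b, Klf2 and Zfp36l2 completed the 10, and the median mean percentile was 66.3.

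Genes that counter ferroptosis, an iron-dependent death by lipid peroxidation named in the title of the study, were Ftl1, Nfe2l2, Hspa5, Slc3a2 and Atf4. Hspa5, the endoplasmic reticulum chaperone BiP (chr2:34771572-34772618), had folds of 7.79 and 7.46 in Nup214-HET LSCs, against 13.5 and 11 in Nup214fl/+ LSCs. Nfe2l2 had 8.38 and 7.22 in Nup214-HET LSCs, against 11.3 and 10.1 in Nup214fl/+ LSCs. Slc3a2, the heavy chain of the cystine-glutamate exchanger, had 7.83 and 4.28 in Nup214-HET LSCs, against 15.2 and 8.66 in Nup214fl/+ LSCs at its end. A second, weaker region lay inside Slc3a2, and Fth1, the ferritin heavy chain, had a region inside the gene. Ferroptosis driver genes had regions at 2 of 30 (Cyb5r1 and Vdac2), close to the share of all genes, and Por, an electron donor to cytochrome P450 enzymes, had one inside the gene with folds of 6.18 and 6.53 in Nup214-HET LSCs, against 14.7 and 14.8 in Nup214fl/+ LSCs.

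Nuclear pore and transport genes had regions at 6 of 44 (13.6%), and at 10 when the second Nup214-HET library was left out of the rule. The count of all genes with a region at an end then rose too, from 1112 to 1768. Xpo1, the exportin that docks at NUP214 (chr11:23255446-23256276), had folds of 9.64 and 8.30 in Nup214-HET LSCs, against 12.6 and 11.2 in Nup214fl/+ LSCs. Kpnb1, importin beta, had folds of 8.81 and 7.44 in Nup214-HET LSCs, against 11.4 and 9.47 in Nup214fl/+ LSCs. These transport receptors had the highest mean percentiles of the list, 93.5 and 89.3. Nup88, the direct partner of NUP214, was the weakest, with folds of 4.18 and 5.72 in Nup214-HET LSCs, against 11.1 and 5.65 in Nup214fl/+ LSCs. Nup107, a scaffold nucleoporin, Ranbp2, a filament protein of the cytoplasmic face, and Nupl1, a nucleoporin of the central channel, lay between them. Nup214 itself had no region at an end or inside.

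At genes that define leukemic or blood cell identity the counts were small and near the share of all protein-coding genes. Men1, which encodes the MLL partner menin, was the single gene of 33 MLL-fusion targets and co-factors (3.03%) with a region at an end, and Mef2c, an MLL-fusion target, had one inside the gene. Men1 had folds of 5.50 and 4.37 in Nup214-HET LSCs, against 5.98 and 4.37 in Nup214fl/+ LSCs. Mef2c had 4.82 and 5.60 in Nup214-HET LSCs, against 16.1 and 11.6 in Nup214fl/+ LSCs. The count at ends was 2 without the first Nup214-HET library, without the second Nup214fl/+ library or without the first HSC library. Blood stem cell genes had 1 of 32 (3.1%, Egr1), and 2 without the first Nup214-HET library. Granulocyte and monocyte genes had 1 of 30 (3.33%, Csf2ra, a receptor chain for GM-CSF), and 4 without the second Nup214fl/+ library. The count of all genes also rose in these settings. It was 1418 without the first Nup214-HET, 1298 without the second Nup214fl/+ and 1283 without the first HSC library, against 1112. T and NK cell markers had 1 of 12 (8.33%, Cd3d) and megakaryocyte markers 1 of 10 (10%, Nfe2). A NUP214 peak does not measure expression, so these counts neither check nor question the sorted cell type.

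Cell cycle genes had regions at 6 of 38 (15.8%). Pcna, the sliding clamp of DNA replication (chr2:132252578-132253449), had folds of 8.84 and 9.68 in Nup214-HET LSCs, against 16.9 and 10.9 in Nup214fl/+ LSCs, a mean percentile of 95.6. Cdk4 had 6.69 and 6.45 in Nup214-HET LSCs, against 15.6 and 16.8 in Nup214fl/+ LSCs, and Cdc20, Cdc6, Cdt1 and Mcm7 completed the list. Ccnd3 and Cdkn1a had regions inside the gene. The replication genes of this list thus ranged from 58.7 at Cdt1, a licensing factor, to the 95.6 of Pcna.

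Chromatin regulators had 7 of 58 (12.1%): Chd8, Eed, Ino80, Kmt2b, Kmt2c, Kmt2d and Smarcd2, with 13 when either Nup214-HET library was left out. Kmt2b, Kmt2c and Kmt2d encode H3K4 methyltransferases of the MLL family. Kmt2d had folds of 5.12 and 6.47 in Nup214-HET LSCs, against 9.07 and 9.75 in Nup214fl/+ LSCs, and Kmt2b 6.96 and 5.26 in Nup214-HET LSCs, against 12.6 and 6.05 in Nup214fl/+ LSCs. Brd2, Dnmt1, Kdm6a and Kdm6b had regions inside the gene. Cell survival genes had 3 of 27, namely Apaf1, Bad and Cflar, with Bcl2l1 inside, and 6 without the second Nup214-HET library. Targets of p53 had 1 of 25, Rrm2b, and 4 without the second Nup214-HET library, with Cdkn1a inside. Cytoplasmic ribosomal protein genes had 6 of 64, and 20 without the second Nup214-HET library. Mitochondrial translation genes had 1 of 36, Mrpl55, and 4 without the second Nup214-HET library. Leaving out a library loosens the rule for all genes. Without the second Nup214-HET library 1768 genes had a region at an end, and 1418 without the first, against 1112 under the full rule. The rise in these lists is therefore not read as particular to them.

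The 2 genotypes were compared on what the rule left free, the rank of a region within its library. The median percentile of the regions was lower in Nup214-HET LSCs, by 11.3 points (74.2 ± 1.63 against 85.5 ± 5.98, SD, n = 2 each; exact permutation test, two-sided, p = 0.33, the smallest possible). This measure moves with list length: with the leukemia lists cut to their 4681 strongest peaks, the length of the shortest, the difference turned to 12.8. Region by region, both Nup214-HET percentiles lay below both Nup214fl/+ percentiles in 528 of 1106 regions (47.7%), against 45.5% of all 1388 regions called in the 4 leukemia libraries. They lay above in 107 (9.67%), against 12.5% of the 1388. The 1388 hold the 1106 members themselves beside 282 other regions, so the shares had to lie close to each other. This closeness is no result about the members, and the 282 were not compared apart. By rank among the 1106 regions, which does not use list length, the directions were nearly equal. Both Nup214-HET ranks then lay below both Nup214fl/+ ranks in 279 regions (25.2%) and above in 265 (24.0%).

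Libraries of 1 genotype ordered the regions more alike than libraries of different genotype. Over the 1106 regions, Spearman's rho of the fold percentile was 0.608 between the Nup214-HET libraries, 0.653 between the Nup214fl/+ libraries and 0.357 to 0.400 across genotypes. The points are the same regions, which share the library's depth, fragment length and base composition, so this is a description. Regions between genes had a median rank among the 1106 of 37.3 and 36.3 in Nup214-HET LSCs, against 24.3 and 27.8 in Nup214fl/+ LSCs, on a scale from 0 to 100. Regions at gene ends lay at 53.5 and 53.4 in Nup214-HET LSCs, against 55.2 and 53.8 in Nup214fl/+ LSCs. Regions inside genes lay at 37.5 and 41.1 in Nup214-HET LSCs, against 34.4 and 38.3 in Nup214fl/+ LSCs, so that the groups overlapped there. Regions between genes stood higher among the members in both Nup214-HET libraries than in both Nup214fl/+ libraries.

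The regions with the largest drop in percentile in Nup214-HET LSCs included Txn1, which encodes the redox protein thioredoxin, at chr4:57956145-57956902. Its folds were 4.93 and 3.53 in Nup214-HET LSCs, against 16.4 and 12.6 in Nup214fl/+ LSCs. By rank among the 1106 regions it stood at 16.7 and 1.36 in Nup214-HET LSCs, and at 89.0 and 89.2 in Nup214fl/+ LSCs, so the groups were far apart on both scales. The region of Ddx5, an RNA helicase, and Polg2 (chr11:106779131-106780036) had folds of 4.22 and 4.20 in Nup214-HET LSCs, against 15.1 and 9.90 in Nup214fl/+ LSCs. Pgpep1, a peptidase, had folds of 3.87 and 4.65 in Nup214-HET LSCs, against 15.1 and 11.9 in Nup214fl/+ LSCs. The region 22011 bp from Pisd had folds of 4.47 and 3.73 in Nup214-HET LSCs, against 13.5 and 11.2 in Nup214fl/+ LSCs. Gabarap, a protein of autophagosome formation, shared the last of these regions with Phf23, and its rank among the regions was 0.452 and 0.543 in Nup214-HET LSCs against 7.87 and 43.2 in Nup214fl/+ LSCs. These regions were picked for their difference and carry no test.

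In the opposite direction, Plcl2, with a region inside the gene (chr17:50529112-50529851), had folds of 4.64 and 8.98 in Nup214-HET LSCs, against 4.19 and 4.16 in Nup214fl/+ LSCs. Noc2l, an inhibitor of histone acetylation, had folds of 8.74 and 10.6 in Nup214-HET LSCs, against 4.78 and 8.08 in Nup214fl/+ LSCs. Scube2 had folds of 5.87 and 7.25 in Nup214-HET LSCs, against 5.57 and 5.09 in Nup214fl/+ LSCs. Of these 5 regions, which also include Hpcal1 and the region 36790 bp from Ccr1, Hpcal1 alone lay at a gene end, and its folds of 9.96 and 9.09 in Nup214-HET LSCs stood against 12.7 and 4.28 in Nup214fl/+ LSCs. In contrast, 4 of the 5 regions with the largest drop lay at gene ends. Both sets were chosen by their difference, and the counts describe these 10 regions.

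Along the genome, the regions were spread over all chromosomes but Y. Chromosome 11 held the most, 124 regions (11.2%), with 7.35% of protein-coding genes and 7.63% of merged regions. Chromosome 7 held 99 and chromosome X 23. Neighbouring regions lay a median of 521 kb apart, and 29 neighbouring pairs lay within 10 kb of each other, so the regions were mostly single sites.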

How the data were processed

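NUP214 CUT&Tag peak lists of 2 Nup214-HET LSC, 2 Nup214fl/+ LSC and 2 HSC libraries were used, grouped by the sample titles. Per the submitters' processing notes, FastQC 0.11.5, Bowtie2 2.2.9, MACS2 and ChIPseeker were used with the mm10 build; peak-calling settings, any control and the handling of duplicates stand as not given in the sources used here. The authors' deposited lists give each peak a fold enrichment (a linear ratio), a −log10 p, a −log10 q and a score. Depth is unknown, since the lists hold no read totals. Peaks were merged where at least 1 bp overlapped. In each library the fold of a region's strongest peak was ranked among all its peaks (percentile). Genes and promoters came from RefSeq GRCm38.p6, the same assembly as mm10, matched by position; of 634 names in the gene lists, 633 matched a symbol or synonym. The members and gene lists were chosen with earlier results of these data known. Named regions are the 15 highest and 5 lowest mean percentiles, the 5 longest and the 5 with most peaks. The 5 with the largest difference in each direction between genotypes and genes of the lists were named too. Promoters are the 6 whose summits lie nearest the start among the genes and lists given with them. Ribosomal protein, histone and cell cycle genes, small RNA genes and 2 regions between genes were named in addition, after their values were seen. One of the 5 lowest is not reported here. Library-level values were compared by exact permutation tests (scipy 1.17.1, Python 3.11.15), two-sided. The rule was checked on simulated lists. Alternatives were lists cut to equal length, a stricter q, other overlaps and windows, and leaving out each library.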

Additional observations from a re-analysis of the deposited data

How the results depend on the processing

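Every result here depends on peak lists of unequal length, and HSC absence is absence of a call. With all lists cut to their 634 strongest peaks, 107 regions met the rule and 123 genes had one at an end, the difference in percentile between Nup214-HET and Nup214fl/+ LSCs turned to 5.21, that in share of peaks was 0, and the CpG difference turned to -0.000297. With the leukemia lists cut to 4681 peaks, the differences in percentile and share turned to 12.8 and -0.427, and 857 regions met the rule. Against other peaks at least as strong as the median region, an alternative chosen after seeing the data, the CpG difference was -0.0128, that in CCAAT boxes 1.18 points and that in GC boxes -0.707 points. When peaks had to cover at least 50% of the merged region, also added after seeing the data, 426 regions were left; an overlap of 50% of the smaller of peak and region changed nothing by construction. Leaving out 1 library at a time gave 1111 to 1816 regions (the highest without the second Nup214-HET library), 1101 to 1768 genes, and a width difference of -49.8 to 219.5 bp (negative without the second Nup214fl/+ library). The gene-end difference, averaged over the libraries, stayed between 24.7 and 48.8 percentage points under the alternatives other than the 50% cover of the region. Under that cover, 84.0% of peaks in the regions lay at a gene end in every leukemia library. For other peaks the share was 33.5% and 30.6% in Nup214-HET LSCs, against 34.5% and 37.5% in Nup214fl/+ LSCs. With the library number as a replicate block, the genotype differences were -11.3 in percentile, 14.1 points in share and 73 bp in width (exact p = 0.5, 0.5 and 1, where 0.5 is the smallest 2 pairs allow), and no call changed; the numbers are not said to mark shared animals. Of the other values, counts of genes per list, 231 stayed within 1.5-fold and 42 did not. The causes were not tested.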
